A study of Homo sapiens with 6 samples.

Results

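Cyclins, cyclin-dependent kinases (CDKs) and the E2F factors that they act on were examined in K562 cells after knockdown of nucleophosmin (NPM). The set was taken by gene symbol: cyclins named with a letter and a number, CDKs and E2Fs named with a number, CDC25A, CDC25B, CDC25C, RB1, RBL1 and RBL2. It comprised 50 of the 20802 genes measured, namely 17 cyclins, 19 CDKs, 8 E2F genes, 3 CDC25 phosphatases and 3 pocket protein genes. Of these, 43 reached 1 RPM (the reads of a gene scaled to the reads of its library) in at least 2 of the 6 libraries and are reported here: 14 cyclins, 15 CDKs and all of the E2F, CDC25 and pocket protein genes. Cyclins named with a letter alone, such as CCNC and CCNH, fall outside the symbol rule and are treated among the pathway lists.

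K562 is a cell line established from a patient with chronic myeloid leukemia in blast crisis. NPM KD cells carried shNPM300, a short hairpin RNA against NPM1, and shSc cells carried a scrambled hairpin. Both hairpins were delivered by lentivirus in pLKO.1-puro, both were selected with 2 µg/mL puromycin, and the methods call the resulting cells stable clones without giving their number. Each condition rests on 1 hairpin. Each group had 3 AmpliSeq libraries, in which a short stretch of each transcript is amplified with gene-specific primers and its reads are counted. The sources speak of triplicates and do not say whether they came from separate cultures, so p-values here measure the spread between libraries, which may be technical. A gene is read through its own amplicon and amplicons differ in efficiency, so levels are compared between libraries and never between genes.

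Cyclins bind CDKs and switch on their kinase activity. D-type cyclins with CDK4 and CDK6, and later E-type cyclins with CDK2, phosphorylate the pocket proteins RB1, RBL1 and RBL2, which releases E2F factors to activate the genes of DNA replication. A- and B-type cyclins with CDK2 and CDK1 carry the cell through S phase and mitosis, CDC25 phosphatases remove the inhibitory phosphates from CDKs, and a further group of cyclins and CDKs acts on RNA polymerase II instead of the cell cycle.

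NPM1, the targeted gene (chromosome 5, 170814120 to 170838814 of GRCh37), had 1302, 1168 and 655 RPM in NPM KD replicates 1, 2 and 3, against 3856, 2968 and 3146 RPM in shSc replicates 1, 2 and 3. Its log2 fold change was -1.76 (SE 0.35), which did not pass the threshold with limma (adjusted p = 0.158) and did with DESeq2 (adjusted p = 0.00145), and NPM1 pseudogenes can share its reads. Libraries held 8842344 to 18981902 reads, so a gene at 0 could be at up to 0.158 (deepest) or 0.339 RPM (shallowest library) from counting error alone. Replicate 3 of shSc, which the study did not retain, stood apart: it was the shallowest library, showed 16619 genes above 0 against 13893 to 14600 in the others, and over the 43 genes its correlation with the other libraries (Pearson r = 0.82 to 0.85) lay below that of all other pairs (0.87 to 0.95), as a description. The erythroid genes that mark K562 were abundant in each library (summed level 8045 to 19185 RPM in NPM KD, 10034 and 16394 RPM in shSc replicates 1 and 2 and 7979 RPM in shSc replicate 3). B cell markers summed to at most 0.63 RPM in NPM KD and 0.92 RPM in shSc replicates 1 and 2 but to 20.6 RPM in shSc replicate 3, with MS4A1 and PAX5 at 0 in the 5 other libraries. Markers of T and NK cells summed to 19.1 to 90.2 RPM in NPM KD, 51.9 and 53.5 RPM in shSc replicates 1 and 2 and 111 RPM in shSc replicate 3, fibroblast markers to 14.1 to 56.3, 16.7 and 37.5, and 21.3 RPM in the same order, and epithelial markers, of which K562 expresses KRT8 and KRT18, to 701 to 1548, 779 and 884, and 998 RPM. The part of other cells in the values below was not tested. Fold changes set the 3 NPM KD libraries against shSc replicates 1 and 2, the value of shSc replicate 3 is printed beside them, and values over all 6 libraries are added for some genes. In each group, levels are listed for replicates 1, 2 and 3 in that order.

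Several of these genes are themselves targets of E2F factors, so the promoters of the genes were searched for letters that E2F is known to read. The cell cycle homology letters and CCAAT were searched for as well. RefSeq promoters (GRCh38.p14) matched 37 of the 43 genes, all but CCND1, CCND2, CCNE2, CDK2, E2F5 and E2F8. Letters for E2F (TTTCCCGC, TTTCGCGC, TTTGCCGC or TTTGGCGC on either strand) occurred in the 250 bases before the start of 8 of the 37 genes (21.6%), against 3.4% of 27305 genes with a promoter: CDC25A, CDK1, CDK10, CDK19, E2F1, E2F2, E2F3 and RBL1. The cell cycle homology letters TTTGAA occurred in 5 of the 37 (13.5%, against 16.1%), and CCAAT in 18 (48.6%, against 37%), both counted on either strand. The 27305 genes were not filtered by level as the 43 were, and they outnumber the 20802 genes measured, so these shares compare unlike sets. Matching letters are a description of the sequence, not a measured binding site. The stretches shown are those of genes that come up again below, with E2F letters (E2F1, RBL1, CDC25A, CDK1, CDK10), with TTTGAA (CDK1, CCNB2) or with CCAAT alone (E2F7). Capitals mark E2F, TTTGAA and CCAAT letters or their reverse complements, and coordinates and strand follow each name.
E2F1 (chr20:33686386-33686515, minus strand): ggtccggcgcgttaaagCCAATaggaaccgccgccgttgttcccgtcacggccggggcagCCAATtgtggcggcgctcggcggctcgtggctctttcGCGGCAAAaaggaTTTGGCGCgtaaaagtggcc
RBL1 (chr20:37095998-37096127, minus strand): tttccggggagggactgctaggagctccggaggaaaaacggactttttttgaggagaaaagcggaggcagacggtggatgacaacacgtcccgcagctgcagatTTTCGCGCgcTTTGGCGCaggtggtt
CDC25A (chr3:48188418-48188547, minus strand): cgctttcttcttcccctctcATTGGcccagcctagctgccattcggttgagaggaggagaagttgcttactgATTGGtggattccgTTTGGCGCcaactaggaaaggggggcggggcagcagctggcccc
CDK1 (chr10:60778348-60778477, plus strand): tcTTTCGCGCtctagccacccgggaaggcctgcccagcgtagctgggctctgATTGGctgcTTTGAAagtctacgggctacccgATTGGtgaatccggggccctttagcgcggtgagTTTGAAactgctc
CDK10 (chr16:89686559-89686688, plus strand): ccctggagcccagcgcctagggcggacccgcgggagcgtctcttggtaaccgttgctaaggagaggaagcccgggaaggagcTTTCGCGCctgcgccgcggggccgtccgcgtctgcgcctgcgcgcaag
CCNB2 (chr15:59105016-59105145, plus strand): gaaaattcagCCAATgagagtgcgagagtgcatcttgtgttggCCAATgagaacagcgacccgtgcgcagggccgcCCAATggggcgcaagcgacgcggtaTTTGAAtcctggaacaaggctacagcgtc
E2F7 (chr12:77065570-77065699, minus strand): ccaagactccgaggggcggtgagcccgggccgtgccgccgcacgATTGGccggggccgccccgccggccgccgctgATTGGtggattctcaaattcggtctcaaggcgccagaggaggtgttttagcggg
No matches overlapped in these stretches. E2F1 carried 2 matches of E2F letters, 33 and 20 bases before its start, and so did RBL1, 26 and 16 bases before its start. CDK1 and CDK10 held the same letters, TTTCGCGC, 128 and 48 bases before their starts. The 8 genes with E2F letters had log2 fold changes of -0.77 to 0.18 with a median of -0.05, and the 475 tested genes of the whole series with E2F letters had a median of -0.01.

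No gene of the set passed the test between NPM KD and shSc cells. With limma on log2(RPM + 0.5), 0 of 43 reached an adjusted p of 0.05 (smallest 0.531, for CCND2), against 15 of all 11554 genes tested (0.13%, of which 0.0692% higher and 0.0606% lower). The count was also 0 over all 6 libraries with limma (0.0256% of all genes) and, on the reads recovered from the RPM steps, with edgeR (0.0952%, of which 0.0433% higher and 0.0519% lower) and DESeq2 (1.64%, of which 0.909% higher and 0.736% lower). A limma fit of the 5 libraries with the replicate number as a block was the exception. It called 9 of the 43 genes, against 1698 of the 11554 genes tested, and over all 6 libraries the block fit called 0 of either. Its limits are given with the other alternatives at the end. At an unadjusted p under 0.05, limma without a block gave 2 genes, CCND2 and CDK10, against 7.14% of all genes. The same 2 came from edgeR (6.94% of all genes), DESeq2 added E2F7 (7.56%), and limma over all 6 libraries gave CCND2 and E2F7 (6.83%). In these bulk libraries fewer cells in a phase of the cycle and less RNA per cell cannot be told apart.

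The median size of the change was smaller in the set than over all genes tested, which were not matched to the set by level. With a filter of 5 RPM, 42 of the 43 genes stayed, against 9651 of the 11554 genes tested. The part of level in this difference was not tested. Over the set the median log2 fold change was 0.06, against 0.01 over all genes tested, and the median size of the change was 0.18, against 0.27. Positive values made up 26 of the 43 (60.5%, against 50.8% of all genes). A change of at least 1 in size occurred in 1 gene, CCNG2, against 5.17% of all genes. Standard errors ran from 0.21 to 1.10 with a median of 0.32, so the median 95% interval reached 0.73 to each side on the log2 scale. Intervals of 24 genes lay within -1 to 1, which puts a change of more than 2-fold outside the interval for these, and 2 intervals, those of CCND2 and CDK10, did not include 0.

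**Figure D1:**
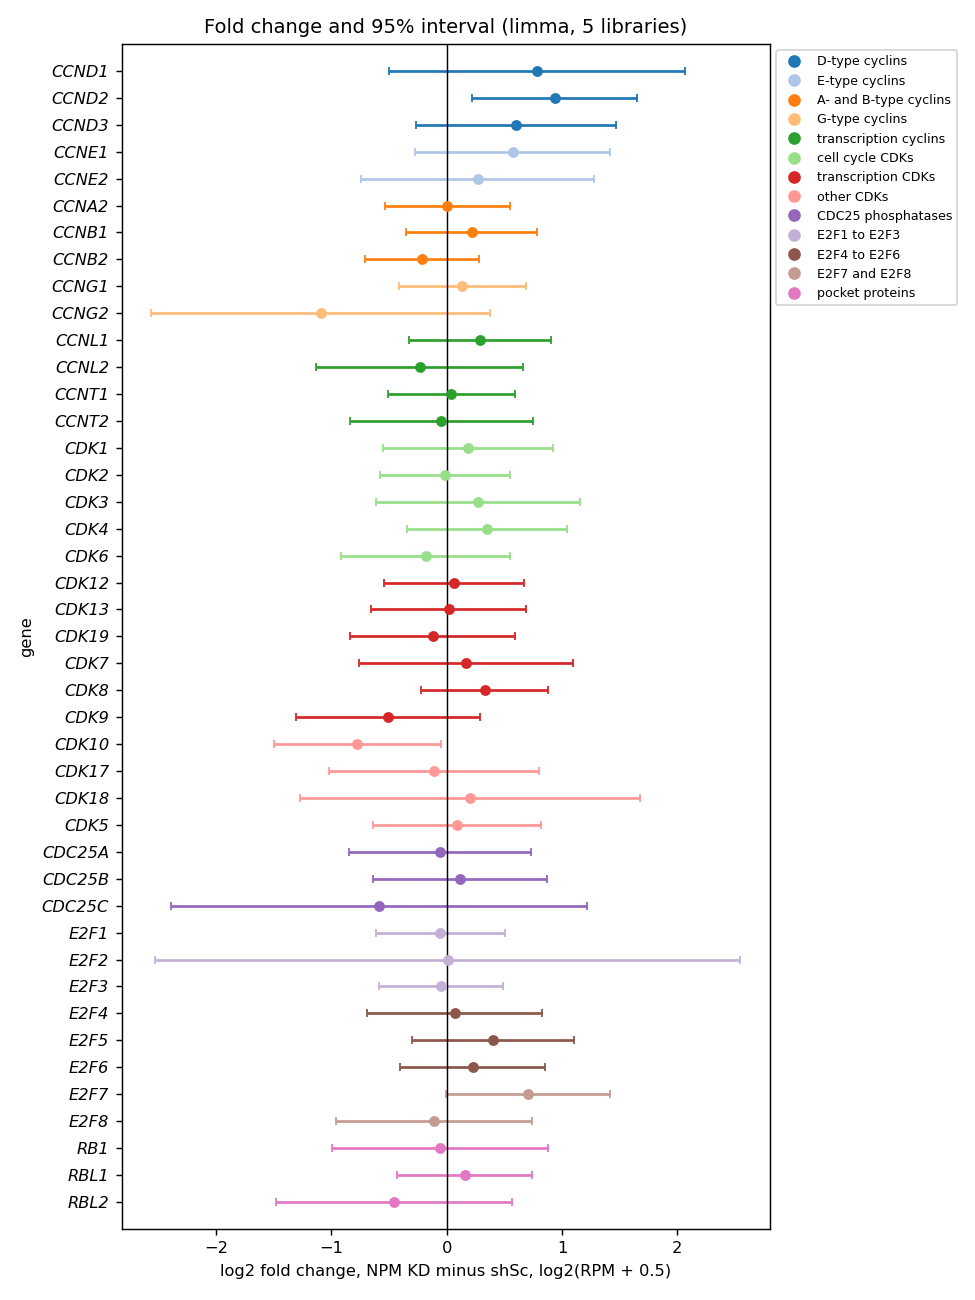
Log2 fold change (NPM KD minus shSc, on log2(RPM + 0.5), x axis) of the 43 genes, ordered and coloured by role, with the 95% interval from limma over 5 libraries as bars. Intervals of CCND2 and CDK10 lie to one side of 0, and E2F2, CDC25C and CDK18 have the widest.

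NPM KD and shSc libraries did not overlap for 5 genes, which is 11.6% of the set against 22.8% of all genes tested. CCND2, CDK8 and E2F7 were higher in each NPM KD library than in shSc replicates 1 and 2 (12.3% of all genes), and CCNB2 and CDK10 were lower (10.4%). With shSc replicate 3 included, CCND2, CDK8 and E2F7 still did not overlap (7% of the set, against 13.9% of all genes, of which 9.41% higher and 4.54% lower), and CCNB2 and CDK10 did. For most of the set the replicates themselves differed by more than the groups: shSc replicates 1 and 2 lay further apart than the group means for 32 of 43 genes (74.4%, against 64.3% of all genes). E2F2 was the extreme, with 0.85 RPM in shSc replicate 1 and 18.3 RPM in shSc replicate 2. Among NPM KD libraries, replicates 1 and 2 were nearer to each other than to replicate 3 for 26 genes (60.5%, against 44.7% of all genes).

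**Figure D2:**
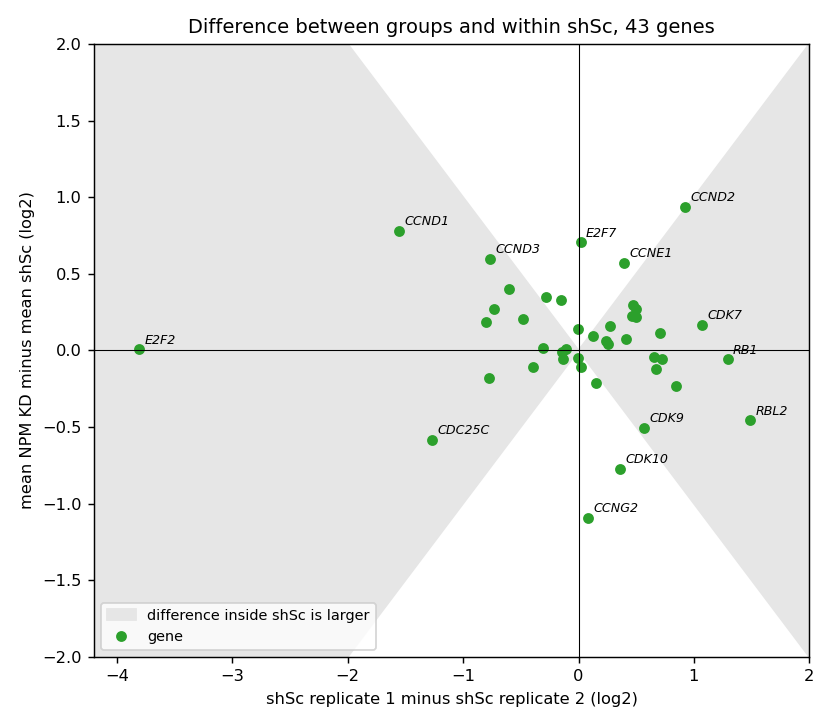
Each point is 1 of 43 genes: the x axis gives shSc replicate 1 minus shSc replicate 2 and the y axis the mean of NPM KD minus the mean of shSc, both on log2(RPM + 0.5). The 32 points in the grey area differ more inside shSc than between the groups, while E2F7, CCNG2, CDK10 and CCND2 fall outside it.

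D-type cyclins, the CDK4 and CDK6 partners that respond to growth signals, all had positive fold changes, of 0.60 to 0.94 with a median of 0.78. CCND2 (Entrez Gene 894, chromosome 12, 4378937 to 4414519 of GRCh37, plus strand) had 148, 149 and 126 RPM in NPM KD, against 101, 52.9 and 82.3 RPM in shSc. Every NPM KD library stood above every shSc library, with a mean of 141 ± 12.8 RPM (SD, n = 3) in NPM KD and 76.8 ± 33.9 RPM (SD, n = 2) in shSc replicates 1 and 2. From limma, the log2 fold change of CCND2 was 0.94 (SE 0.31, 95% interval 0.22 to 1.65, adjusted p = 0.531), and over all 6 libraries it was 0.88 (adjusted p = 0.583). It moved to 0.48 without shSc replicate 2 and to 1.40 without shSc replicate 1. A CCND2 pseudogene can share its reads.

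CCND1 (chromosome 11, 69455924 to 69469242, plus strand) had 14.7, 13.6 and 6.48 RPM in NPM KD, against 3.38, 10.9 and 7.92 RPM in shSc. NPM KD replicates 1 and 2 were above all shSc libraries, while replicate 3 lay between shSc replicates 1 and 3. For CCND1 limma gave a log2 fold change of 0.78 (SE 0.55, adjusted p = 0.848), of which 0.0037 remained without shSc replicate 1. CCND3 (chromosome 6, 41902672 to 42018095, minus strand) had 282, 343 and 164 RPM in NPM KD, against 127, 216 and 162 RPM in shSc. Here too NPM KD replicates 1 and 2 were the highest, and replicate 3 overlapped the shSc libraries. Its log2 fold change was 0.60 (SE 0.37, adjusted p = 0.809 with limma), and it was 0.22 without shSc replicate 1. CCND3 pseudogenes can share reads with it.

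**Figure D3:**
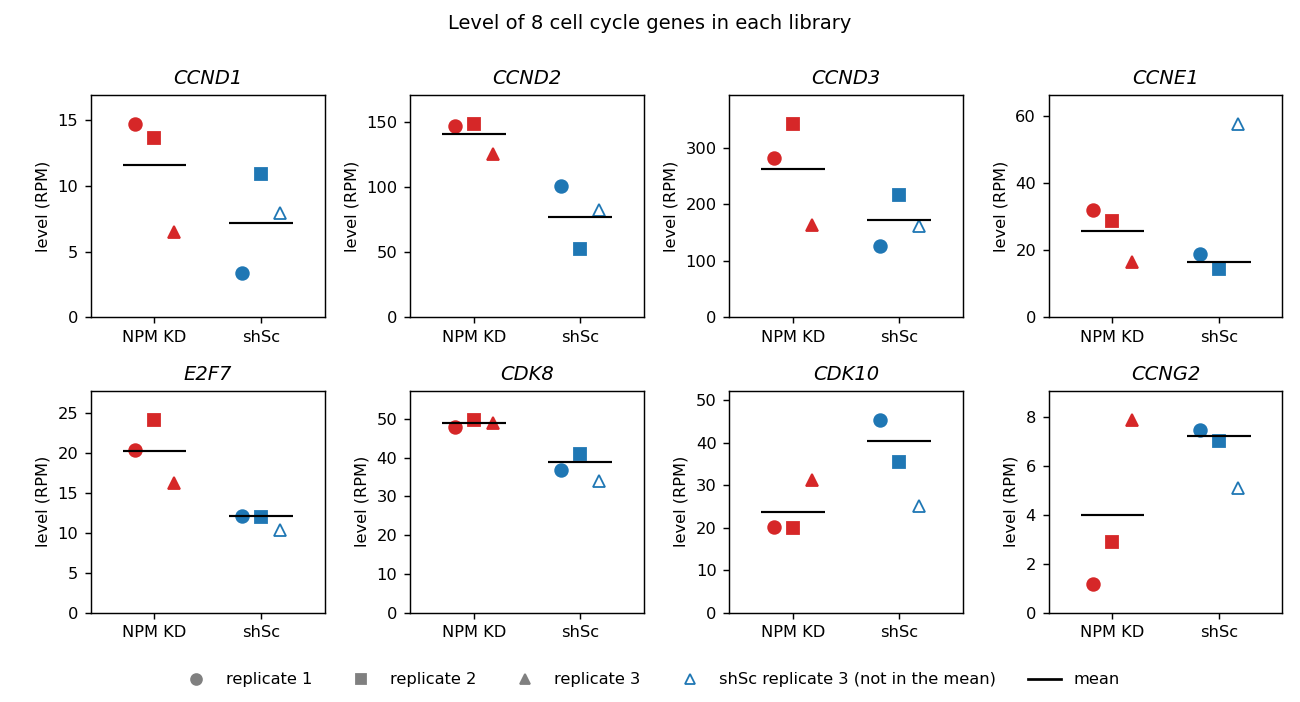
Level (RPM, linear axis from 0) of CCND1, CCND2, CCND3, CCNE1, E2F7, CDK8, CDK10 and CCNG2 in each library, NPM KD left and shSc right, with the marker shape giving the replicate and the bar the group mean without shSc replicate 3. CCND2, E2F7 and CDK8 show all NPM KD points above all shSc points, and CCNE1 is highest in shSc replicate 3 at 57.6 RPM.

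E-type cyclins, which activate CDK2 at the entry into S phase, were both above 0. CCNE1 had 31.8, 28.7 and 16.4 RPM in NPM KD, against 18.9, 14.3 and 57.6 RPM in shSc. The groups overlapped, and the highest of all 6 values was that of shSc replicate 3. Against shSc replicates 1 and 2 the log2 fold change was 0.57 (SE 0.36, adjusted p = 0.818 with limma), and it turned to -0.02 over all 6 libraries. CCNE2 had 10.4, 12.9 and 5.37 RPM in NPM KD, against 8.88, 6.14 and 5.09 RPM in shSc, with NPM KD replicate 3 among the shSc values. CCNE2 was placed by limma at a log2 fold change of 0.27 (SE 0.44, adjusted p = 0.935), which was 0.019 without shSc replicate 2, 0.022 without NPM KD replicate 2 and 0.62 without NPM KD replicate 3.

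Among A- and B-type cyclins, which drive S phase and mitosis, the nearest to equal was CCNA2, the partner of CDK2 and CDK1. It had 171, 177 and 135 RPM in NPM KD, against 153, 165 and 133 RPM in shSc, and the 2 ranges overlapped. The log2 fold change of CCNA2 was 0.01 (SE 0.23, 95% interval -0.53 to 0.55, adjusted p = 0.998 with limma). CCNB1, the main mitotic partner of CDK1, had 153, 152 and 135 RPM in NPM KD, against 150, 106 and 112 RPM in shSc, a log2 fold change of 0.22 (SE 0.25, adjusted p = 0.914 with limma). CCNB2, a further B-type partner of CDK1 with 3 CCAAT and 1 TTTGAA match in the stretch shown, had 282, 288 and 305 RPM in NPM KD, against 356, 320 and 205 RPM in shSc. All NPM KD values lay between shSc replicate 3 and shSc replicates 1 and 2, and the log2 fold change was -0.21 (adjusted p = 0.902 with limma). CCNA1, an A-type cyclin best known from the germ line, and CCNB3 did not reach the level for reporting, with at most 0.07 and 0.26 RPM in any library.

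G-type cyclins accompany cell cycle arrest more than progression, and neither passed. CCNG1, a p53 target, had 184, 195 and 252 RPM in NPM KD, against 189, 190 and 150 RPM in shSc. CCNG2 (chromosome 4, 78078360 to 78354542, plus strand) had few reads, 14 to 150 per library, and stood at 1.18, 2.90 and 7.90 RPM in NPM KD, against 7.47, 7.02 and 5.09 RPM in shSc. NPM KD replicates 1 and 2 were below all shSc libraries, and NPM KD replicate 3 was above all of them. Its log2 fold change of -1.09 (SE 0.63, 95% interval -2.56 to 0.38, adjusted p = 0.804 with limma) was the largest in size of the set and became -0.53 without NPM KD replicate 1. Each G-type gene has a named pseudogene that can share its reads.

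Cyclins of transcription, CCNT1 and CCNT2 as partners of CDK9 and CCNL1 and CCNL2 as partners of CDK11 kinases, spread around 0 with log2 fold changes of -0.23 to 0.29. CCNL1 had 94.5, 73.8 and 98.3 RPM in NPM KD, against 84.7, 60.9 and 105 RPM in shSc. The highest value was that of shSc replicate 3, and limma gave a log2 fold change of 0.29 (SE 0.27, adjusted p = 0.886). It was 0.057 without shSc replicate 2, 0.53 without shSc replicate 1 and 0.11 over all 6 libraries. CCNT1 was between 72.4 and 88.9 RPM in NPM KD and between 68.4 and 85.2 RPM in shSc, so both groups covered nearly the same range. CCNT2 ranged from 26.5 to 45.3 RPM in NPM KD and from 22.3 to 42.9 RPM in shSc, and CCNL2 from 40.1 to 80.0 RPM in NPM KD and from 45.9 to 82.9 RPM in shSc.

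Cell cycle CDKs had log2 fold changes of -0.18 to 0.35. CDK4, the kinase partner of D-type cyclins, had 248, 292 and 161 RPM in NPM KD, against 161, 196 and 161 RPM in shSc. As for CCND1 and CCND3, NPM KD replicates 1 and 2 were above every shSc library and replicate 3 was not. The log2 fold change of CDK4 was 0.35 (SE 0.30, adjusted p = 0.879 with limma). It was 0.17 without NPM KD replicate 2, 0.21 without shSc replicate 1 and 0.60 without NPM KD replicate 3, and a CDK4 pseudogene can share its reads. CDK6, the other kinase of D-type cyclins, had 82.1, 128 and 108 RPM in NPM KD, against 90.6, 155 and 96.2 RPM in shSc. This lower mean in NPM KD (log2 fold change -0.18, SE 0.32, adjusted p = 0.935 with limma) was inside the spread of shSc.

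CDK2, the partner of E- and A-type cyclins, had 202, 183 and 144 RPM in NPM KD, against 167, 185 and 130 RPM in shSc. With a log2 fold change of -0.01 (SE 0.24, 95% interval -0.57 to 0.55, adjusted p = 0.996 with limma) CDK2 was, like CCNA2, close to 0, and over all 6 libraries it was 0.13. CDK1, the mitotic kinase, had 267, 275 and 397 RPM in NPM KD, against 205, 358 and 256 RPM in shSc. Its groups overlapped, with a log2 fold change of 0.18 (SE 0.32, adjusted p = 0.935 with limma) that turned to -0.22 without shSc replicate 1. CDK3, a kinase linked to the exit from quiescence, had 8.42, 5.63 and 7.43 RPM in NPM KD, against 4.37 and 7.58 RPM in shSc replicates 1 and 2, and 48.4 RPM in shSc replicate 3.

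Kinases of transcription covered both signs. CDK8 (Entrez Gene 1024, chromosome 13, 26828241 to 26995119, plus strand), a kinase of the Mediator complex, had 47.9, 49.8 and 48.9 RPM in NPM KD, against 36.8, 40.9 and 33.9 RPM in shSc. The NPM KD values were the closest together of the whole set (highest over lowest 1.04) and all above shSc. The difference was small, with a log2 fold change of 0.33 (SE 0.24, adjusted p = 0.848 with limma), and 0.39 over all 6 libraries (adjusted p = 0.733). Named pseudogenes of CDK8 can share its reads. CDK9, the kinase of the elongation factor P-TEFb, had 43.7, 26.4 and 48.8 RPM in NPM KD, against 66.7, 44.7 and 29.6 RPM in shSc. Its log2 fold change was -0.50 (SE 0.35, adjusted p = 0.839 with limma) with overlapping groups, and -0.21 over all 6 libraries. CDK19, the paralog of CDK8, ranged from 21.3 to 26.4 RPM in NPM KD and from 13.8 to 32.6 RPM in shSc, with overlapping groups. CDK7, the kinase of TFIIH and activator of other CDKs, ranged from 42.1 to 80.1 RPM in NPM KD and from 36.1 to 116 RPM in shSc. CDK12 and CDK13, kinases of elongating polymerase, were at 143 to 214 RPM and 36.6 to 58.4 RPM in NPM KD, against 137 to 192 RPM and 24.1 to 50.2 RPM in shSc.

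CDK10 (Entrez Gene 8558, chromosome 16, 89747145 to 89762762, plus strand), the kinase partner of cyclin M, was the lower counterpart of CCND2. It had 20.1, 19.95 and 31.2 RPM in NPM KD, against 45.4, 35.3 and 25.1 RPM in shSc. All NPM KD libraries were below shSc replicates 1 and 2, with means of 23.8 ± 6.47 RPM (SD, n = 3) in NPM KD and 40.4 ± 7.12 RPM (SD, n = 2) in shSc, while shSc replicate 3 lay inside the NPM KD range. For CDK10 limma gave a log2 fold change of -0.77 (SE 0.31, 95% interval -1.50 to -0.05, adjusted p = 0.668), and -0.55 (adjusted p = 0.741) over all 6 libraries. CDK5, a kinase best known in neurons, ranged from 34.7 to 60.1 RPM in NPM KD and from 44.9 to 71.5 RPM in shSc. CDK17 ranged from 24.2 to 55.7 RPM in NPM KD and from 36.8 to 50.7 RPM in shSc, and CDK18, at the edge of the reporting level, from 0.26 to 2.86 RPM in NPM KD and from 0.78 to 2.15 RPM in shSc. CDK14, CDK15 and CDK16 stayed under 1 RPM in all 6 libraries, CDK15 at 0 throughout, as did the cyclin CCNI2.

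CDC25 phosphatases did not separate the groups. CDC25A, which acts from the start of S phase, had 23.3, 17.8 and 16.1 RPM in NPM KD, against 25.3, 15.2 and 20.8 RPM in shSc, a log2 fold change of -0.06 (SE 0.34, adjusted p = 0.985 with limma). CDC25B, which acts ahead of mitosis, ranged from 24.2 to 34.2 RPM in NPM KD and from 21.8 to 35.9 RPM in shSc. CDC25C, a mitotic phosphatase, varied most, with 2.78, 10.7 and 22.4 RPM in NPM KD, against 8.60, 21.5 and 15.6 RPM in shSc. The highest of its NPM KD values was 8.08 times the lowest, and the highest and the lowest of all 6 values were both NPM KD libraries.

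Of the E2F family, the activators E2F1 and E2F3 both had a log2 fold change of -0.05, and that of E2F2 could not be placed. E2F1, whose promoter holds E2F letters in both orientations, had 45.2, 46.2 and 40.9 RPM in NPM KD, against 43.6 and 47.9 RPM in shSc replicates 1 and 2, and 103 RPM in shSc replicate 3. Without that library the groups overlapped, with a log2 fold change of -0.05 (SE 0.24, 95% interval -0.61 to 0.50, adjusted p = 0.979 with limma), and over all 6 libraries it was -0.44 (adjusted p = 0.776). E2F3 was also even, at 63.9 to 77.5 RPM in NPM KD against 72.4 and 72.7 RPM in shSc replicates 1 and 2, with 43.7 RPM in shSc replicate 3, which turned its log2 fold change to 0.19 over all 6 libraries. E2F2 had 1.43, 8.53 and 6.95 RPM in NPM KD, against 0.85, 18.3 and 10.7 RPM in shSc, and its 95% interval of -2.53 to 2.55 covered large changes in both directions. The estimate for E2F2 was 0.01 with limma (SE 1.10), -0.80 with edgeR, -0.80 with DESeq2 and -0.38 with limma over all 6 libraries.

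E2F4, E2F5 and E2F6, the repressor E2Fs, had log2 fold changes of 0.07 to 0.40 against shSc replicates 1 and 2. E2F4, the main partner of RBL1 and RBL2, had 102, 76.3 and 52.3 RPM in NPM KD, against 81.4, 61.1 and 52.5 RPM in shSc. All shSc values of E2F4 lay within the NPM KD range, and NPM KD replicate 1 was above every shSc library. The log2 fold change of E2F4 was 0.07 (SE 0.33, adjusted p = 0.9797 with limma). E2F5 had 27.7, 35.5 and 36.4 RPM in NPM KD, against 20.1, 30.7 and 18.7 RPM in shSc. Replicate 1 of NPM KD lay below shSc replicate 2, and limma gave E2F5 a log2 fold change of 0.40 (SE 0.30, adjusted p = 0.854), which was 0.10 without shSc replicate 1 and 0.70 without shSc replicate 2. E2F6, which represses without pocket proteins, had 52.1, 44.7 and 41.5 RPM in NPM KD, against 46.1 and 33.3 RPM in shSc replicates 1 and 2, and 393 RPM in shSc replicate 3. Its log2 fold change was 0.23 without that library and -0.88 with it (adjusted p = 0.918 and 0.802 with limma). E2F6 has 4 named pseudogenes that can share its reads.

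E2F7 (Entrez Gene 144455, chromosome 12, 77415028 to 77459349, minus strand) and E2F8 are atypical E2Fs that repress E2F targets. E2F7 had 20.4, 24.2 and 16.3 RPM in NPM KD, against 12.2, 12.04 and 10.4 RPM in shSc. All NPM KD libraries were above all shSc libraries, with means of 20.3 ± 3.94 RPM (SD, n = 3) in NPM KD and 12.1 ± 0.11 RPM (SD, n = 2) in shSc replicates 1 and 2. For E2F7 limma gave a log2 fold change of 0.71 (SE 0.31, 95% interval -0.001 to 1.41, adjusted p = 0.699), and over all 6 libraries 0.78 (SE 0.28, adjusted p = 0.659). Leaving out any of the 5 libraries kept its fold change between 0.57 and 0.85. E2F8 had 9.93, 19.95 and 12.2 RPM in NPM KD, against 14.7, 14.4 and 10.6 RPM in shSc, with overlapping groups.

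Pocket proteins, which hold E2Fs inactive, overlapped between the groups. RB1 had 57.3, 39.6 and 57.1 RPM in NPM KD, against 82.8, 33.5 and 76.2 RPM in shSc. The shSc libraries enclosed the NPM KD range, and the log2 fold change of -0.06 (SE 0.40, adjusted p = 0.987 with limma) became 0.59 without shSc replicate 1. RBL1, also called p107, had 36.2, 35.6 and 37.0 RPM in NPM KD, against 35.7, 29.5 and 21.7 RPM in shSc, a log2 fold change of 0.16 (SE 0.25, adjusted p = 0.934 with limma). It was 0.023 without shSc replicate 2, 0.29 without shSc replicate 1 and 0.35 over all 6 libraries. Like CDK8, RBL1 was very even in NPM KD, where the highest value was 1.04 times the lowest. RBL2, also called p130, had 42.2, 37.5 and 59.0 RPM in NPM KD, against 105, 37.1 and 38.7 RPM in shSc. A high value in shSc replicate 1 lay behind its log2 fold change of -0.45 (SE 0.44, adjusted p = 0.897 with limma), which was 0.29 without it.

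**Figure D4:**
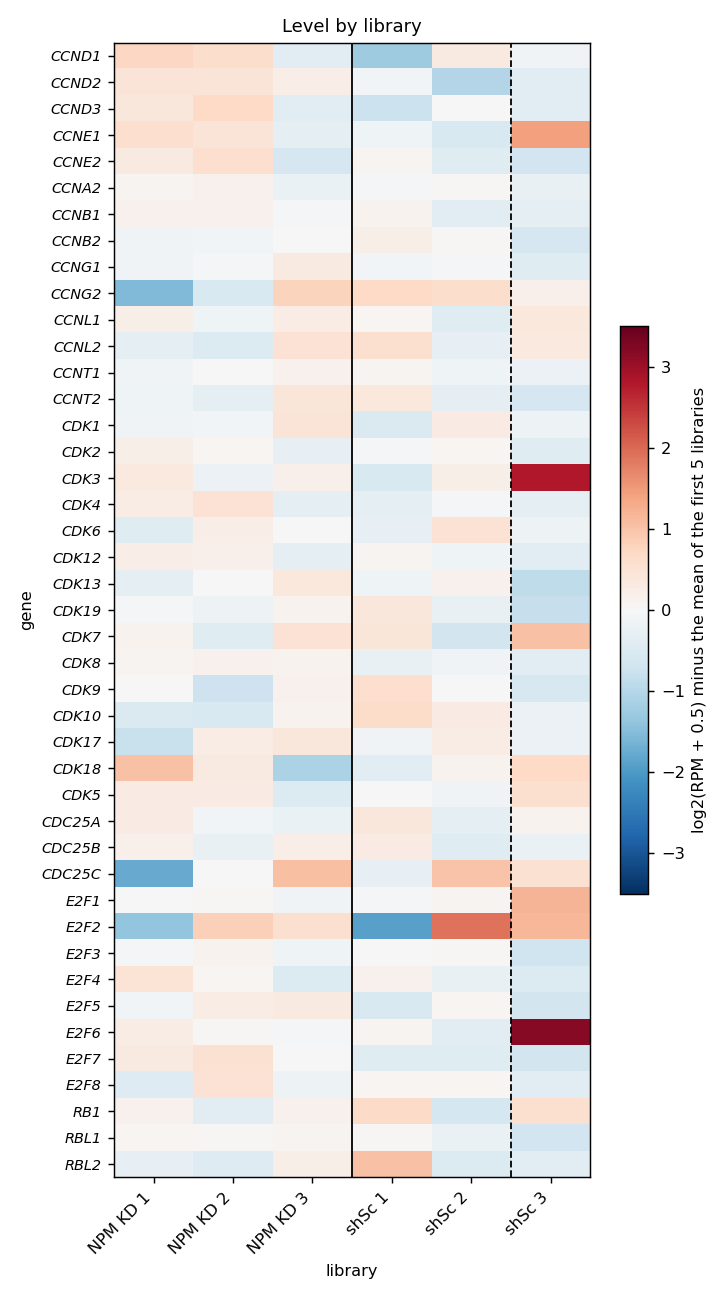
Colour gives log2(RPM + 0.5) minus its mean over the 5 libraries left of the dashed line, for 43 genes (rows, by role) in 6 libraries (columns; the solid line parts NPM KD from shSc). CCND1, CCND3, CCNE1 and CDK4 are red in NPM KD replicates 1 and 2 and blue in NPM KD replicate 3, and CDK3, E2F6, CCNE1 and E2F1 are red in shSc replicate 3.

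Replicate 3 of shSc had the highest value for 7 of the 43 genes (16.3%, against 16.3% of all genes), namely CCNE1, CCNL1, CDK3, CDK5, CDK7, E2F1 and E2F6, a share equal to that of all genes. It had the lowest value for 15 genes (34.9%, against 26.4% of all genes), among them CCNA2, CCNB2, CDK2, CDK8, E2F3, E2F5, E2F7 and RBL1. With this library included, the fold change of 13 of the 43 genes turned in direction, and none passed with limma either way. Next to E2F6, the turn was largest for CDK3, at -0.72 over all 6 libraries and 0.27 over 5, and CDK7 was at -0.21 and 0.17. CDK20, also called cell cycle-related kinase, was at 0.67, 0.26 and 0.58 RPM in NPM KD and at 0.49 and 0.24 RPM in shSc replicates 1 and 2, but at 14.8 RPM in shSc replicate 3.

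Genes that act with the set were read from 8 lists of 147 genes, of which 133 were tested. None passed with limma (0.13% of all genes did) or edgeR (0.0952%), and 1 of the 133 passed with DESeq2 (CDKN1A, against 1.64% of all genes). An unadjusted p under 0.05 came from limma for 3 (CDKN1A, CDKN1C and TFE3, against 7.14% of all genes). It came from edgeR for 4 (6.94%) and from DESeq2 for 4 (7.56%). The median log2 fold change over the lists was 0.05, against 0.01 over all genes. CDKN1A, which encodes the CDK inhibitor p21, had 31.0, 26.9 and 28.5 RPM in NPM KD, against 10.3, 7.18 and 11.9 RPM in shSc. Its groups were well apart, with a log2 fold change of 1.68 (SE 0.30, adjusted p = 0.133 with limma, 5.4e-05 with DESeq2). CDKN1C, which encodes the CDK inhibitor p57, had 9.59, 9.30 and 17.4 RPM in NPM KD, against 19.0, 33.9 and 51.0 RPM in shSc (log2 fold change -1.10, SE 0.41, adjusted p = 0.621 with limma). CDKN2A and CDKN2B, inhibitors of CDK4 and CDK6 whose locus is known to be deleted in K562, were at 0 in all 5 libraries, with 0.113 RPM of CDKN2A in shSc replicate 3. In the list of kinases, phosphatases and inhibitors that act on CDKs, 0 of 12 genes passed with limma, with a median log2 fold change of -0.10.

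The E2F targets of DNA replication (MCM3 to MCM7, CDC6, PCNA and others; MCM2 was too low to be tested) had 0 of 25 passing with limma and a median of 0.07. Their summed level was 4557 to 5444 RPM in NPM KD, against 4931 and 5393 RPM in shSc replicates 1 and 2 and 4088 RPM in shSc replicate 3. The nearest to the threshold was UHRF1, a reader of DNA methylation, with 82.8, 47.8 and 34.6 RPM in NPM KD, against 89.5, 80.1 and 126 RPM in shSc (log2 fold change -0.71, SE 0.37, adjusted p = 0.780 with limma). Mitotic targets of MYBL2 and FOXM1 had 0 of 24 passing and a median of 0.17, with a summed level of 2601 to 2772 RPM in NPM KD against 2311 and 2565 RPM in shSc replicates 1 and 2 and 2303 RPM in shSc replicate 3. Members of that list went both ways: TTK, a checkpoint kinase, had 89.2, 96.8 and 113 RPM in NPM KD, against 78.1, 79.5 and 76.5 RPM in shSc, while BUB1, another checkpoint kinase, had 151, 134 and 206 RPM in NPM KD, against 224, 218 and 238 RPM in shSc. Neither passed (adjusted p = 0.846 and 0.804 with limma).

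In the list of E2F partners with the DREAM and MuvB complexes, 0 of 11 genes passed with limma and the median was 0.15. TFDP1, the DNA-binding partner of E2Fs, had 138, 169 and 84.4 RPM in NPM KD, against 91.7, 88.5 and 150 RPM in shSc, with overlapping groups. TFE3, a factor that can act with E2F3, had 31.0, 17.2 and 28.0 RPM in NPM KD, against 61.9, 38.6 and 20.9 RPM in shSc (log2 fold change -0.97, SE 0.36, adjusted p = 0.617 with limma). Of the ubiquitin ligases that destroy cyclins, 0 of 27 genes passed and the median was -0.03. Their summed level was 2243 to 2548 RPM in NPM KD, 2244 and 2598 RPM in shSc replicates 1 and 2, and 5077 RPM in shSc replicate 3. In that list CDC27 had 166, 208 and 172 RPM in NPM KD, against 138, 186 and 3256 RPM in shSc. Cyclins named with a letter alone had 0 of 8 passing and a median of 0.07, the other CDK family kinases and partners 0 of 16 and 0.05, and the partners of cyclins and CDKs in transcription 0 of 12 and 0.02. MED12, the Mediator subunit that activates CDK8, had 60.9, 70.9 and 69.0 RPM in NPM KD, against 26.3, 56.6 and 58.4 RPM in shSc. Like CDK8, it was higher in each NPM KD library, and it did not pass (log2 fold change 0.78, SE 0.35, adjusted p = 0.712 with limma).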

How the data were processed

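RNA of K562 cells with shNPM300 (NPM KD, 3 libraries) or a scrambled hairpin (shSc, 3 libraries) was measured with the Ion AmpliSeq transcriptome kit. Groups and replicate numbers were taken from the titles that the submitters gave the samples. The authors called bases and aligned reads to hg19 with Torrent Suite 4.4 (from the methods; the build also stands in the submitters' processing notes). Gene values were then made with the AmpliSeqRNA plugin, of which the sources used here name neither version nor settings, and deposited as RPM. Every deposited table has 20802 genes, and its 10 further rows for spike-in RNA hold only 0 and were not used. All 6 tables carry the name of the same sequencing run.

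Steps between RPM values gave whole reads (within 0.1 read) for 100% of values, and summing these gave the depth of each library (8842344 to 18981902 reads). The floors (3 reads) cover counting error only. The intervals of fold changes come from the limma fit and, like its p-values, rest on the spread between libraries. Chi-square per gene between libraries was 41.2 to 228, so all 6 libraries differed beyond sampling noise.

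The fit took the 5 libraries that the study retained and the 11554 genes at 1 RPM or more in 2 or more of them. Values were put on a log2(RPM + 0.5) scale and fitted with limma 3.58.1 (R 4.3.3) using its variance trend and no covariate, and p-values were adjusted over all genes by Benjamini-Hochberg (threshold 0.05). Fold changes are on that scale, which understates changes of low genes. For the count tests, the quasi-likelihood test of edgeR 4.0.16 and DESeq2 1.42.0 were run on the recovered reads. Other alternatives were all 6 libraries (11723 genes), pseudocounts of 0.1 and 1, a filter at 5 RPM or none, quantile normalization or TMM factors, limma fitted without its trend, the replicate number as a block, and each library left out. The limma steps were run on simulated data with 200 changed genes, as a check of the code. The spread of the simulated libraries was not matched to that of the real ones. The simulation therefore does not measure how often real changes would be missed here.

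Fold changes with errors were given for genes past the threshold, the 12 of smallest p, those of at least 1 in size, and 17 core genes, 24 in all; of each pathway list, up to 3 genes of smallest p could be named. CCNB2, CDK3, E2F6, CDC25C, CDK20, CCNG1, E2F2, E2F8 and, of the lists, CDC27 were given per library after their values were seen. The set, the lists and these rules were chosen with earlier results of these data known. Coordinates of genes and names of pseudogenes come from GENCODE 44 mapped to GRCh37, and promoters from RefSeq on GRCh38.p14. Tables and figures were made with Python 3.11.15, pandas 2.3.3 and matplotlib 3.10.9. RT-qPCR, ChIP, western blot and cell cycle measurements were not analysed here.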

Additional observations from a re-analysis of the deposited data

Results flagged for a closer look

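Replicate 3 of shSc is the library outside the main comparison. There E2F6, E2F1 and CDK3 were above 1 RPM and at least 2 times as high as in any other library. These are 3 of the 43 reported genes, against 1038 of the 11723 genes tested over all 6 libraries (8.85%). CDK20 met the same 2 conditions, but it reached 1 RPM in this library only and was not tested. CDK16 was 3.01 times as high there as in any other library, but at 0.79 RPM. E2F6 was at 393 RPM there, against at most 52.1 RPM in NPM KD and 46.1 RPM in shSc replicates 1 and 2. E2F1 was at 103 RPM, against at most 46.2 RPM in NPM KD and 47.9 RPM in shSc replicates 1 and 2. CDK3 was at 48.4 RPM, against at most 8.42 RPM in NPM KD and 7.58 RPM in shSc replicates 1 and 2. CDK20 was at 14.8 RPM, against at most 0.67 RPM in NPM KD and 0.49 RPM in shSc replicates 1 and 2. The same library also showed reads for 1844 of the 4659 genes that were at 0 in the 5 other libraries. The cause was not tested.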

How the results depend on the processing

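No gene of the set was called in any alternative but the replicate block, and the median log2 fold change of the set stayed between 0.02 and 0.17, against 0.06. The count of all genes called was 15 with limma and became 3 over all 6 libraries, 2 without a filter, 7 with a filter of 5 RPM, 26 after quantile normalization, 190 with DESeq2 and 0 to 5 with any 1 library left out. DESeq2 also called 1 gene of the pathway lists, CDKN1A, and NPM1 (log2 fold change -1.71). Over all 6 libraries 13 of the 43 genes turned in direction: CCNE1 to -0.020, CDK2 to 0.13, E2F6 to -0.88, CDK3 to -0.72, E2F2 to -0.38, CDK7 to -0.21, E2F3 to 0.19, and CCNB2, CCNT2, CDK5, CDK18, CDK19 and E2F8 to values of at most 0.17 in size. Without turning, CCNE2 moved to 0.43, E2F4 to 0.21, RB1 to -0.23, RBL2 to -0.23, CDK6 to -0.08, CCNA2 to 0.09 and TFE3 to -0.57. Leaving out 1 library gave -0.064 to 0.13 for CCNA2, -0.030 to 0.46 for CCNB1, -0.42 to 0.30 for CDC25A, -0.22 to 0.59 for CDK1, -0.12 to 0.13 for CDK2, -0.57 to 0.20 for CDK6, -0.12 to 0.013 for E2F1, -0.16 to 0.32 for E2F4, -0.70 to 0.59 for RB1 and -1.20 to 0.29 for RBL2. Of the 24 genes chosen for fold changes, 13 kept their sign in all 17 alternatives. Genes whose groups do not overlap numbered 7 to 20 with 1 library left out, where fewer libraries must separate. A fit with a lone shSc library takes its spread from NPM KD.

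Same-numbered NPM KD and shSc libraries deviated together with r = 0.42 for number 1, 0.30 for number 2 and 0.05 for number 3. The own number was the best match for numbers 1 and 2 and not for 3. Numbers 1 and 2 are the only ones that both groups have in the main fit. The sample titles give the numbers without saying that they pair the libraries, and the main fit did not pair them. With the number as a block, the 5 libraries gave 9 calls among the 43 genes of the set (CCND1, CCND2, CCND3, CCNE1, CCNG2, CDC25C, CDK10, CDK4 and E2F7). Calls numbered 1698 among all 11554 genes tested and 12 among the 133 tested genes of the pathway lists. NPM1 was at -1.46 (adjusted p = 4.65e-06 with limma). For each gene the block fit takes its spread from the libraries numbered 1 and 2 alone, which leave little to estimate it from. In that fit NPM KD replicate 3 has a block to itself and adds nothing to a fold change, so it equals the fold change without that library: CDC25A was at 0.055 and CDK2 at 0.13. The block over all 6 libraries called 0 genes in the set and 0 of all genes, with CCNE1 at -0.020 and CDK2 at 0.13.

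With 3 libraries against 2, a median 95% interval of 0.73 to each side on the log2 scale limits what could be seen. That interval is before adjustment over all genes, and larger differences, such as those of CCND2 (0.94) and NPM1 (-1.76), also missed the adjusted threshold with limma. Genes of a few RPM, such as CCNG2 and CDK18 (5 reads at the least), also carry counting error.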
